A study of Mus musculus with 3 samples.

Results

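N-methyl-D-aspartate (NMDA) receptors are glutamate-gated cation channels, and the 7 mouse genes that encode their subunits were followed here through ribosome-bound RNA of the deep cerebellar nuclei. The genes are Grin1, Grin2a, Grin2b, Grin2c, Grin2d, Grin3a and Grin3b. They were chosen by name, all 7 are among the 32531 genes in the files, and the rule uses no measured value, although the family was picked with earlier results of these data known. Tagged ribosomes were purified by translating ribosome affinity purification (TRAP) from Htr6-TRAP NIDA113 mice on a C57BL/6J background. Adult animals of this line carry an EGFP/Rpl10a fusion, a labelled ribosomal protein, in a line named for Htr6, a serotonin receptor gene. All 3 libraries are immunopurified RNA of that single group, numbered as replicates 1 to 3. No unpurified tissue RNA was analysed here, so a value below is a level in purified RNA and not an enrichment. Separate animals or pools are not named in the labels, and the spread between libraries may therefore be partly technical.

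Every NMDA receptor contains the GluN1 subunit, encoded by Grin1, which binds glycine or D-serine. GluN1 joins with GluN2 subunits (Grin2a to Grin2d), which bind glutamate and set magnesium block, conductance and closing speed, or with GluN3 subunits (Grin3a and Grin3b), which bind glycine and lower calcium permeability. In the rodent cerebellum, granule cells are known to replace GluN2B with GluN2A and GluN2C as they mature. Channels with GluN2C or GluN2D are known for weak magnesium block and small conductance. Neurons of the deep nuclei receive glutamate from mossy and climbing fibre collaterals.

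The subunits share one channel design, which is visible in the coding sequence of the third membrane segment, the part that carries the channel gate. Grin1 and Grin3b are shown because they are the least alike pair of the family over the whole coding sequence. Each stretch is 90 bases of the coding strand, 5′ to 3′, from the GENCODE release M21 annotation of mm10, and capitals mark the 50 bases that are identical in both genes. Exons are numbered in the transcript with the longest coding sequence, and bases 34 to 57 hold the motif at the gate.
Grin1, exon 15 of 21, minus strand, chr2:25297169-25297258: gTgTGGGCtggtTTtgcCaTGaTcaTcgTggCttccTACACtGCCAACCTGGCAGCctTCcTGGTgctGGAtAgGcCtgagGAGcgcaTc
Grin3b, exon 3 of 9, plus strand, chr10:79974603-79974692: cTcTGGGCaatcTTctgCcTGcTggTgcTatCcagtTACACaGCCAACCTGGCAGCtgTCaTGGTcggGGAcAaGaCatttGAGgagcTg

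Over whole coding sequences, identity between 2 members ran from 54.6% for Grin1 and Grin3b to 65.7% for Grin2c and Grin2d. Overlapping genes bear more directly on what was counted. Grin1os, an antisense RNA gene with 0 counts in every library, covers 13.5% of the Grin1 exon bases, and the antisense gene Tmem259 covers 32.1% of those of Grin3b. Tmem259 had 92, 40 and 74 counts in replicates 1, 2 and 3. Whether strand was used in counting is not known here, which leaves the Grin3b counts in particular uncertain.

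The libraries held 7622010 to 8842058 counts assigned to genes. Values are in CPM, counts scaled to a common library size with TMM scaling. Levels of different genes are compared as RPKM, which is CPM per kilobase of exon. Where counts or CPM of several genes are listed, they describe the reads and are not corrected for length. A count of 0 allows up to 0.397, 0.340 and 0.385 CPM in replicates 1, 2 and 3, taking 3 counts as the limit. Intervals and limits cover counting error only, since the sources used here mention no molecular identifiers. In bulk RNA, fewer cells of a type and less RNA per cell cannot be told apart. RNA in these libraries was not only that of deep nuclei neurons: the summed level of 8 granule cell markers was 3710 to 4274 CPM, and all 8 had at least 10 CPM, from Cbln3 (1077 ± 170 CPM; SD, n = 3) to Slc17a7 (54.7 ± 18.5 CPM). The 6 markers of glutamatergic deep nuclei neurons summed to 478 to 735 CPM, and 5 of them had at least 10 CPM, from Slc17a6 (302 ± 80.2 CPM) down, with Lhx9 the lowest (6.2 ± 2.3 CPM). Among 6 markers of GABAergic and glycinergic neurons, which summed to 406 to 945 CPM, 5 reached 10 CPM, led by Gad2 (414 ± 169 CPM), and Sox14 was at 0 in every library.

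Grin1 (ENSMUSG00000026959.13, minus strand of chromosome 2, positions 25291181 to 25319187) was the member with the highest RPKM in each library. It had 1572, 2354 and 1439 counts in replicates 1, 2 and 3, or 208, 267 and 185 CPM. The highest library exceeded the lowest 1.45-fold, so all 3 libraries gave a similar level, 220.0 ± 42.5 CPM (SD, n = 3). Per exon length this was 22.7 ± 4.4 RPKM, and Grin1 ranked 1773rd, 1302nd and 1829th among 23113 genes with an annotated length. Of these genes, 13980 had a count in at least 1 library.

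Grin2c (ENSMUSG00000020734.13, minus strand of chromosome 11, positions 115249169 to 115267243) encodes GluN2C. It had 348, 321 and 80 counts in replicates 1, 2 and 3, or 46.1, 36.4 and 10.3 CPM. It was therefore low in replicate 3 alone. In replicates 1, 2 and 3 the granule cell markers summed to 3710, 4274 and 4132 CPM, and the 7 markers of astrocytes and Bergmann glia, another cell class known to use Grin2c in rodents, to 2447, 2470 and 2841 CPM. The 6 markers of glutamatergic deep nuclei neurons summed to 735, 522 and 478 CPM, and 3 of them were lowest in replicate 3. The 5 markers of molecular layer interneurons with Golgi cells summed to 469, 348 and 308 CPM, and 1 of them was lowest there. Of all genes tested, 31.6% were lowest in replicate 3. The part of these cell classes in the level of Grin2c was not tested. Per exon length Grin2c was at 6.1 ± 3.7 RPKM (SD, n = 3), the highest mean of the Grin2 and Grin3 genes on that scale.

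Grin2d (ENSMUSG00000002771.12, minus strand of chromosome 7, positions 45831883 to 45878378) encodes GluN2D, the GluN2 subunit with the slowest closing channels. It had 325, 0 and 124 counts in replicates 1, 2 and 3, or 43.0, 0 and 15.9 CPM. Replicate 2 was the library with the most gene counts, and the level of Grin2d in replicate 1 was 126-fold the limit for replicate 2.

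Grin2b (ENSMUSG00000030209.14, minus strand of chromosome 6, positions 135713233 to 136173511) encodes GluN2B, the main GluN2 subunit of immature forebrain and granule neurons. It had 141, 20 and 177 counts, or 18.7, 2.3 and 22.7 CPM, in replicates 1, 2 and 3. Its highest library exceeded its lowest 10.01-fold. Grin2b was, like Grin2d, lowest in replicate 2. Grin2a was lowest there too, but its 26 counts were close to the 35 of replicate 3. Without replicate 1 its spread did not pass the Poisson chi-square test (adjusted p = 0.121). The 5 markers of GABAergic and glycinergic neurons that had any count (Gad1, Gad2, Slc32a1, Slc6a5 and Pax2) were each lowest in replicate 2. Their list summed to 406 CPM there, against 725 and 945 CPM in replicates 1 and 3. Of all genes tested, 32.2% were lowest in replicate 2. The 3 oligodendrocyte precursor markers summed to 138, 88.0 and 266 CPM, with 2 of them lowest in replicate 2 as well. The third, Cspg4, was highest there (16, 117 and 3 counts in replicates 1, 2 and 3). In each of the other marker lists, 12.5% to 40% of the markers with a count were lowest in replicate 2. The part of these marker lists in the levels of Grin2a, Grin2b and Grin2d was not tested.

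Grin2a (ENSMUSG00000059003.12, minus strand of chromosome 16, positions 9567898 to 9995560) encodes GluN2A, the most widespread GluN2 subunit of the adult brain. It had 132, 26 and 35 counts in replicates 1, 2 and 3, or 17.5, 3.0 and 4.5 CPM. Only replicate 1 was above 10 CPM, 5.92-fold over the lowest library. Its mean of 0.463 ± 0.445 RPKM (SD, n = 3) was the lowest of the 7 genes per exon length.

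Of the GluN3 genes, Grin3a (ENSMUSG00000039579.15, minus strand of chromosome 4, positions 49661611 to 49845744) gave 83, 290 and 303 counts, or 11.0, 32.9 and 38.9 CPM, in replicates 1, 2 and 3. Replicate 1 was the low library. Grin3b (ENSMUSG00000035745.9, plus strand of chromosome 10, positions 79970715 to 79977190), known from motor neurons, gave 82, 13 and 0 counts, or 10.9, 1.5 and 0 CPM. Its highest library was the one in which Grin3a was lowest. In replicate 1 Grin3a made up 21.4% of the summed Grin3 RPKM, and in replicates 2 and 3 it made up 85.7% and 100%. By coding length the share in replicate 1 was 47.2%.

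**Figure D1:**
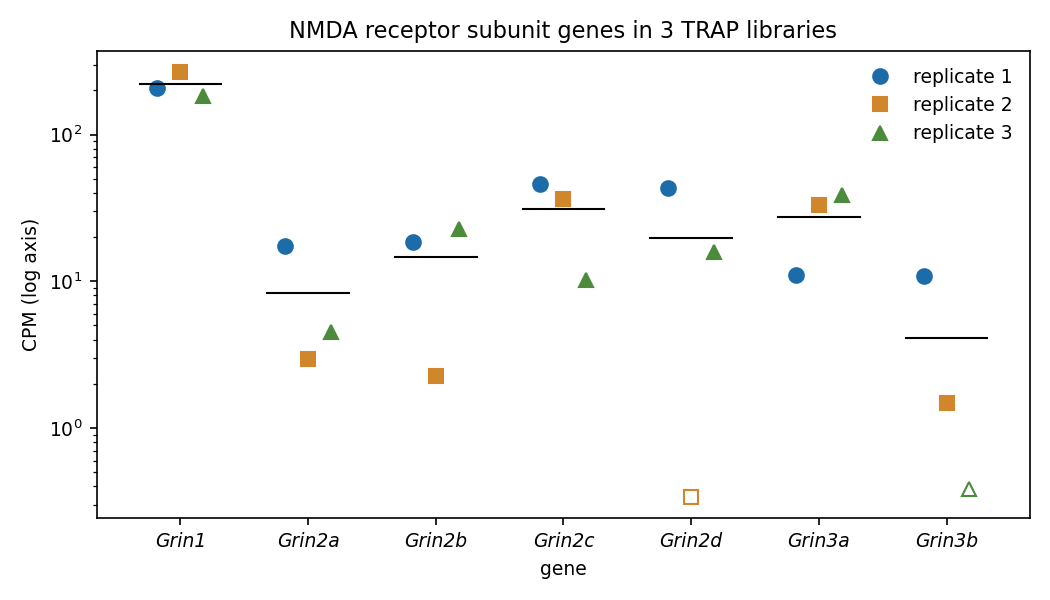
Level of each NMDA receptor subunit gene in CPM (log axis) in replicates 1, 2 and 3. Filled points are measured levels, open points stand at the limit of 3 counts for a count of 0, and bars are means; the Grin1 points lie close together, while Grin2d has an open point in replicate 2 and Grin3b in replicate 3.

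All 7 genes varied between the libraries by more than Poisson counting error, by a chi-square test with Benjamini-Hochberg adjustment over all genes tested. The adjusted p was 5.2e-30 for Grin1 and 7.9e-89 for Grin2d. This holds for 96.5% of the 11168 genes tested, so it does not set the family apart. Without replicate 1, Grin2a (adjusted p = 0.121) and Grin3a (adjusted p = 0.0523) no longer passed, and without replicate 2 Grin2b did not (adjusted p = 0.0968). Grin2d without replicate 1 or 3 and Grin3b without replicate 1 or 2 fell under the count filter and were not tested. Against other genes of similar level, edgeR's quasi-likelihood dispersion called none of the 7 at an adjusted p under 0.05, as it called 0% of all genes. At an unadjusted p under 0.05 it marked 477 of the 11168 genes tested, among them Grin2d (edgeR adjusted p = 0.956). The other Grin genes had adjusted p values of 0.956 to 0.997 in edgeR.

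The 6 genes other than Grin1 each differed at least 3-fold between their highest and lowest library, as did 52.8% of all genes tested. Among the 5030 tested genes with mean levels between those of Grin3b and Grin2c, 4.1 to 30.9 CPM, a range set after the values were seen, that share was 70.7%. Grin2d and Grin3b had 0 counts in a library and at least 50 in another, a pattern of 4.35% of the genes tested.

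The GluN2 mixture was different in each library. Of the summed Grin2 counts in replicate 1 (946 counts), Grin2c took 36.8% (95% exact Clopper-Pearson interval 33.7% to 39.9%), Grin2d 34.4% (31.3% to 37.5%), Grin2b 14.9% and Grin2a 14.0%. In replicate 2 (367 counts), Grin2c took 87.5% (83.6% to 90.7%), Grin2a 7.1% and Grin2b 5.4%. Grin2d took none, which by the limit of 3 counts allows a share of up to 0.817%. In replicate 3 (416 counts), Grin2b took 42.5% (37.7% to 47.5%), Grin2d 29.8% (25.4% to 34.5%), Grin2c 19.2% (15.6% to 23.4%) and Grin2a 8.4%. The intervals of Grin2c do not overlap between any of the 3 libraries. Neither do those of Grin2b, which were 12.7% to 17.3% in replicate 1 and 3.4% to 8.3% in replicate 2. The intervals cover counting error only, and 96.5% of all genes tested varied beyond it, so this sets neither gene apart.

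Transcript length changes this picture for Grin2a and Grin2b, whose annotated exons cover 17933 and 24842 bases, against 5037 for Grin2c and 6658 for Grin2d. As RPKM over all exons, Grin2c made up 52.8%, 96.6% and 36.4% of the Grin2 sum in replicates 1, 2 and 3, and Grin2d 37.3%, 0% and 42.7%. Grin2b made up 4.3%, 1.2% and 16.3%, and Grin2a 5.6%, 2.2% and 4.5%. On this scale Grin2c and Grin2d together held most of the sum in each library. The means were 61.9 ± 31.1% for Grin2c, 26.7 ± 23.3% for Grin2d, 7.3 ± 8.0% for Grin2b and 4.1 ± 1.7% for Grin2a (SD, n = 3). Coding lengths are more alike (4392, 4446, 3717 and 3969 bases for Grin2a to Grin2d). With them Grin2b averaged 19.2 ± 18.2% and was at 39.6% in replicate 3, the highest share there. Since the gene models used for counting are not known here, neither length can be preferred.

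**Figure D2:**
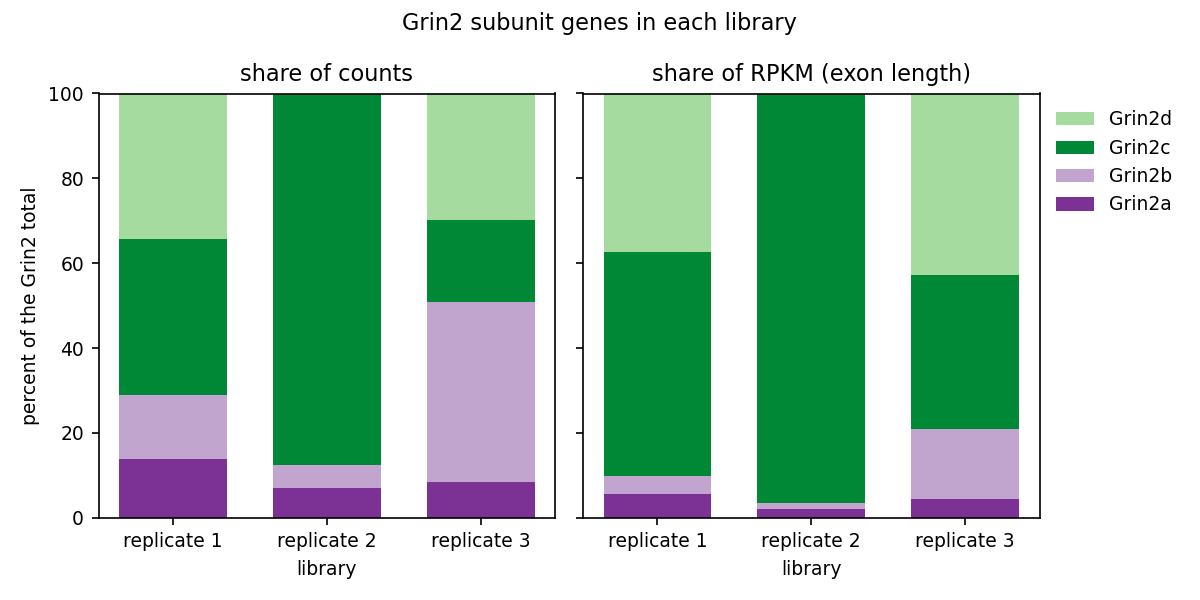
Share of each Grin2 gene in the summed Grin2 counts (left) and in the summed RPKM over all exons (right), in percent, for replicates 1, 2 and 3. Grin2c fills most of replicate 2 on both scales (87.5% and 96.6%), while the Grin2b share of replicate 3 is 42.5% of counts and 16.3% of RPKM.

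Of the 11 differences between genes computed within a library, 6 had the same sign in all 3 libraries. On the log2(RPKM + 0.1) scale, Grin2c exceeded Grin2a by 3.50 ± 1.14 and Grin2b by 3.26 ± 2.10 (SD, n = 3), higher in 3 of 3 libraries. With coding length, Grin2c was above Grin2b in 2 of 3. Grin2c minus Grin2d was 2.16 ± 3.52, within its SD, with Grin2d the higher in replicate 3. Grin1 exceeded each Grin2 gene in 3 of 3 libraries, by 2.10 ± 0.98 for Grin2c, 4.26 ± 3.39 for Grin2d, 5.36 ± 1.59 for Grin2b and 5.60 ± 1.20 for Grin2a. With 3 libraries the smallest p of an exact sign-flip permutation test (two-sided) is 0.25, which these 6 differences reached (adjusted p = 0.458 over the 11). Without replicate 2, where Grin2d was at 0, Grin1 minus Grin2d was 2.33 and Grin2c minus Grin2d 0.14. The remaining 5 differences had no common sign. Among them, Grin3a minus Grin3b was 1.87 ± 3.42, and it was 3.69 without replicate 1 and 0.29 without replicate 3.

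Ordered by mean log2(RPKM + 0.1), the genes ran Grin1, Grin2c, Grin3a, Grin2d, Grin3b, Grin2b and Grin2a. Among neighbours in that order, the step from Grin1 to Grin2c was the one larger than its SD. The steps of Grin2c over Grin3a (1.33 ± 1.91), Grin3a over Grin2d (0.82 ± 3.78), Grin2d over Grin3b (1.05 ± 3.55), Grin3b over Grin2b (0.06 ± 2.95) and Grin2b over Grin2a (0.24 ± 1.12) were all within it (SD, n = 3). By coding length the order was Grin1, Grin3a, Grin2c, Grin2b, Grin2d, Grin2a and Grin3b.

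Grin1, which every receptor needs, was above the 4 GluN2 genes together in all 3 libraries. The ratio of Grin1 to the summed Grin2 RPKM was 1.24, 3.68 and 3.40 in replicates 1, 2 and 3. Replicate 1, where 3 of the 4 Grin2 genes were at their highest CPM, had the lowest ratio. The log2 ratio was 1.32 ± 0.88 (SD, n = 3). It was 2.38 ± 0.91 per longest coding transcript and 2.20 ± 0.94 per coding length, since the Grin1 exon union of 9700 bases exceeds its longest coding transcript of 4276 bases. With the Grin3 genes added to the Grin2 sum, the ratio per exon length was 0.997, 2.59 and 2.17. Per coding length that ratio was 1.89, 4.39 and 2.64, and per longest coding transcript it was 2.02 in replicate 1.

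**Figure D3:**
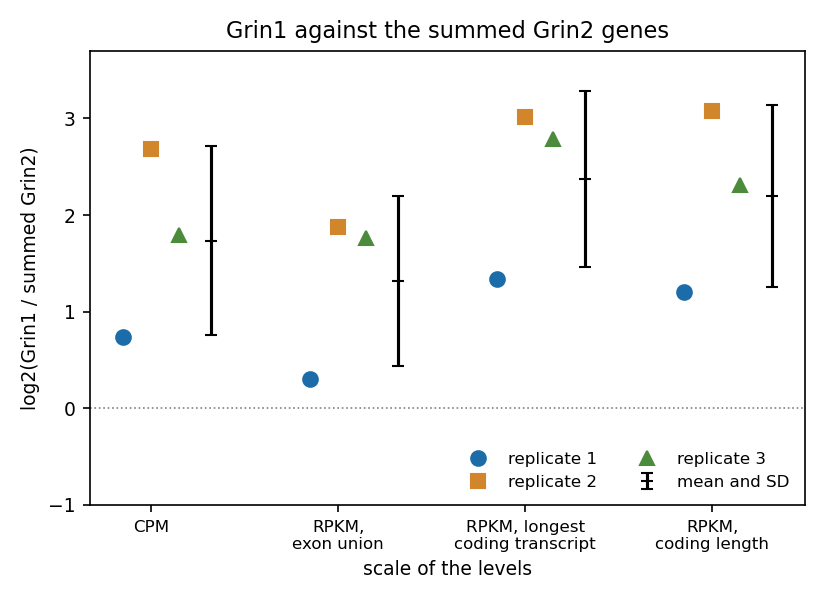
Log2 ratio of Grin1 to the summed Grin2 genes in replicates 1, 2 and 3 on 4 scales of level, with mean and SD. All points lie above the dotted line at 0, where both would be equal, and replicate 1 is the lowest on each scale.

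Among 16 NMDA, AMPA and kainate receptor genes, those of the NMDA receptor made up 21.1%, 17.5% and 13.3% of the summed RPKM in replicates 1, 2 and 3. The 4 AMPA receptor genes, which carry most fast excitation, made up 67.6%, 69.8% and 76.4%. Kainate receptor genes held 10.3% to 12.6%, from Grik3 (12.7 ± 3.5 RPKM; SD, n = 3) and Grik2 (6.8 ± 1.0 RPKM) to Grik4 at the low end. Grin1 (22.7 ± 4.4 RPKM; SD, n = 3) was above Gria2 (16.3 ± 1.5 RPKM), the subunit that makes AMPA receptors calcium-impermeable, but below it by coding length (76.5 ± 14.8 against 95.7 ± 9.1 RPKM). Grin1 was below Gria3 (60.2 ± 4.6 RPKM) and Gria4 (63.9 ± 7.8 RPKM). Gria1, lowest in replicate 1 like Grin3a, had 87, 702 and 616 counts. The NMDA receptor list had a median of 3.45 ± 1.28 on the log2(CPM + 1) scale, against 4.59 ± 0.02 for all genes tested, and 5 of its 7 genes reached 10 CPM, as did 72.5% of the genes tested.

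**Figure D4:**
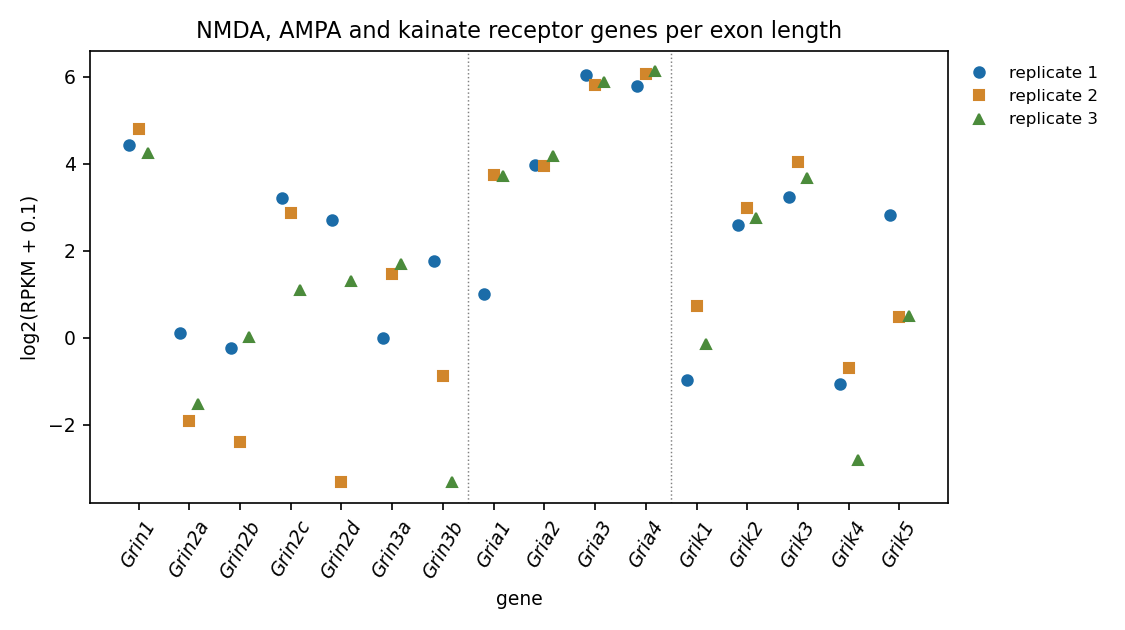
Levels of 16 glutamate receptor genes as log2(RPKM + 0.1) in replicates 1, 2 and 3, with NMDA, AMPA and kainate receptor genes separated by dotted lines. Grin1, Gria2, Gria3 and Gria4 have tight points, and most Grin2 and Grin3 genes have spread ones.

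Genes for making and removing the co-agonists glycine and D-serine numbered 14, of which 8 had at least 10 CPM (72.5% of all genes tested) and the 12 tested varied beyond counting error (96.5% of all). The 72.5% is of genes that passed the count filter, which Psph and Amt did not, although Amt was among the 8. Psat1, of the serine synthesis pathway that feeds both co-agonists, was at 54.6 ± 20.5 RPKM (SD, n = 3). Srr, the serine racemase that makes D-serine, had 427, 581 and 300 counts, or 11.8 ± 3.1 RPKM. The glycine cleavage genes Gcsh and Amt had 499, 171 and 324 counts and 0, 928 and 7 counts, so Amt came almost wholly from replicate 2. Slc7a10, a transporter of D-serine and glycine, had 4, 11 and 30 counts, and Psph, the last enzyme of serine synthesis, had 2, 6 and 0.

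Of 12 genes for scaffolds that hold the receptor at the synapse and for auxiliary proteins, 11 had at least 10 CPM, against 72.5% of all genes tested. All 12 varied beyond counting error, against 96.5% of all. On the log2(CPM + 1) scale their median was 6.00 ± 0.32. Shank1 (113 ± 18.9 RPKM; SD, n = 3) and Dlg2 (98.5 ± 10.3 RPKM), which encodes the PSD-93 scaffold that binds GluN2 tails, were the highest of those named, followed by Dlgap1 (26.1 ± 6.0 RPKM) and Shank2 (18.6 ± 4.5 RPKM). Dlg3, the SAP102 scaffold, had 48, 149 and 248 counts. Ephb2, a receptor kinase that binds NMDA receptors, had 21, 80 and 81.

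Of 8 genes of receptor transport, 5 had at least 10 CPM (72.5% of all genes tested), and 6 of 6 tested varied beyond counting error (96.5% of all). Those 5 were all among the 6 tested, since Kif17 and Gipc1 did not pass the count filter. They included Lin7a (85.2 ± 3.3 RPKM; SD, n = 3), Snx27 (35.1 ± 7.1 RPKM), Apba1 (34.4 ± 13.9 RPKM) and Lin7c (27.7 ± 2.7 RPKM). Lin7a, Lin7c and Apba1 encode adaptors known to link GluN2B cargo to the motor KIF17. Kif17 itself had 0 counts in all 3 libraries, under the limits given above, and Gipc1 had 15, 8 and 0.

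Of 19 genes for enzymes and other proteins that act on or downstream of the receptor, 17 had at least 10 CPM, against 72.5% of all genes tested. The 18 tested, which included those 17, all varied beyond counting error, against 96.5% of all. Their median was 6.26 ± 0.15 as log2(CPM + 1). Rasgrf1, a Ras activator that binds GluN2B, was at 92.2 ± 17.4 RPKM, and the calcineurin gene Ppp3ca at 53.1 ± 3.7 RPKM (SD, n = 3). Camk2b (46.5 ± 7.6 RPKM) and Camk2a (45.7 ± 8.3 RPKM), the kinase subunits that dock on GluN2B, differed by less than their SD on this scale. Per longest coding transcript they were at 106 ± 17.3 and 68.7 ± 12.5 RPKM. By coding length Camk2a was the higher (233 ± 42.2 against 213 ± 34.8 RPKM), within the SD. Csnk2b had 2, 24 and 25 counts and Actn2, an actinin that binds GluN1, had 0, 9 and 1. Activity-regulated genes, which NMDA receptor calcium entry is known to induce, were mostly under 10 CPM. Egr1 was at 17.6 ± 6.8 RPKM, Nr4a1 had 13, 254 and 2 counts, Arc 6, 77 and 156, Bdnf 1, 28 and 78, and Npas4 0, 1 and 1. Junb had no count. Of the 7 genes, 4 passed the count filter, and 2 of these 4 reached a mean of 10 CPM, against 72.5% of all genes tested. Nr4a1 did so through replicate 2 (28.8 CPM), with 1.7 and 0.3 CPM in replicates 1 and 3. The 4 tested varied beyond counting error, against 96.5% of all.

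The genes with the most similar levels were found by the smallest maximum difference in log2(CPM + 1) over the 3 libraries, among 16071 genes with a count. For Grin1 they were Clec16a (0.08), Psip1 (0.09) and Gdap1 (0.10). For Grin2c they were Spata2 (0.18), Slc39a6 (0.19) and Acad11 (0.20), each lowest in replicate 3. Grin2d was nearest to Fam57a (0.33), Srrm4os (0.42) and Ankrd13d (0.47), which had 1, 3 and 0 counts in replicate 2. For Grin2b they were Ube2z (0.19), Plch2 (0.31) and 1 gene known only by a clone identifier, and for Grin3a they were Zfp516 (0.10), Ahdc1 (0.13) and Golt1b (0.17). With 3 libraries and this many genes, such matches describe levels only.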

How the data were processed

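The authors deposited raw counts of reads per gene symbol, whole numbers, in 1 table per library; STAR 2.0.0e, HTSeq and the build mm10 are named in the submitters' processing notes. Library kit and strand setting were not stated, and the annotation is not given in the sources used here. Counts with no feature (44.1% to 50.2% of counted reads) and with several genes (1.77% to 1.94%) were left out. Depth was 7622010 to 8842058 gene counts, which limits a count of 0 to 0.340 to 0.397 CPM.

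From these counts, CPM was computed with TMM library sizes (edgeR 4.0.16, R 4.3.3), and RPKM with exon lengths of GENCODE release M21 (same build; 23113 symbols with 1 length). Variation between libraries was tested with a Poisson chi-square on genes with at least 10 counts in 2 libraries, and with edgeR's quasi-likelihood dispersion over its trend (intercept only), both Benjamini-Hochberg adjusted over all genes. Checked on simulated counts for 11168 genes with Poisson error only, the chi-square recovered 93% of 2-fold changes in 1 library. The edgeR test recovered 25% of 16-fold changes in counts simulated with the dispersion of its trend. The 93% does not carry over to these libraries, where 96.5% of genes varied beyond Poisson error. Differences within a library used exact sign-flip permutation tests (scipy 1.17.1). Alternatives were DESeq2 1.42.0 size factors, total counts, other lengths, pseudocounts, no filter and leaving out each library.

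The members and gene lists were chosen with earlier results of these data known. Named genes are the members, the 4 highest and 2 lowest of each pathway list by mean CPM, the 3 nearest genes of members with at least 10 CPM, and the highest and lowest gene of each marker list. Gad1, Slc32a1, Slc6a5 and Pax2 were named after their values were seen, to complete a group, as were C1qa and Aif1, both at 0. Some genes and sequences that these rules would name are not reported here.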

Additional observations from a re-analysis of the deposited data

How the results depend on the processing

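DESeq2 size factors, total gene counts, no filter on low counts and pseudocounts of 1 or 0.01 left each result they were applied to with the same sign and on the same side of its threshold. Pseudocounts of 1 and 0.01 still moved pairs with a count of 0: Grin2c minus Grin2d to 1.11 and 3.26, Grin3a minus Grin3b to 0.742 and 3.00002, Grin2d minus Grin2a to 1.05 and 0.60, and Grin2d minus Grin2b to 0.93 and 0.37. They also moved Grin2c minus Grin2a to 2.15 and 3.86 and Grin2c minus Grin2b to 2.04 and 3.63, and Grin2b minus Grin2a to 0.116 with a pseudocount of 1. Length turned some directions. The Grin2a share averaged 8.9% with coding length and 9.8% of counts, the Grin2b share 19.2% and 20.97%, and the log2 ratio of Grin1 to the Grin2 sum was 2.38 with the longest coding transcript and 2.20 with coding length. Grin2d minus Grin2b turned to -0.53 with coding length and -1.29 without length scaling, and Grin2d minus Grin2a to -0.61 without it. These shifts follow from the lengths used. Leaving out each library gave shares of 3.3% to 5.0% for Grin2a, 2.8% to 10.3% for Grin2b, 44.6% to 74.7% for Grin2c and 18.6% to 40.0% for Grin2d, and a log2 ratio of 1.04 to 1.82. Grin2b minus Grin2a ranged from -0.40 to 0.60, negative without replicate 3, and Grin2c minus Grin2d from 0.14 without replicate 2 to 3.35. Mean CPM of Grin3b ranged from 0.738 without replicate 1 to 6.17 without replicate 3. The count of genes that varied was 10773 of 11168 by the Poisson test. With 2 libraries it was 7977 of 9912, 7902 of 9658 and 7877 of 9582 genes tested, without replicates 1, 2 and 3. By edgeR it was 0 of 11168, and 477 had an unadjusted p under 0.05. No paired comparison between conditions was possible because the labels give 1 group.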

Other observations

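The remaining markers of cells that could share the purified RNA gave these values. Purkinje cell markers summed to 5704 to 7625 CPM over the 3 libraries, with Itpr1 the highest (3669 ± 451 CPM; SD, n = 3) and Skor2 the lowest (7.3 ± 5.0 CPM), and 6 of 7 had at least 10 CPM. Molecular layer interneuron and Golgi cell markers summed to 308 to 469 CPM, with 3 of 5 at 10 CPM or more, from Kit (175 ± 19.9 CPM) to Grm2 (10, 6 and 105 counts). Unipolar brush cell markers were led by Plcb4 (1029 ± 304 CPM), which Purkinje cells also use, and Otx2 had 3, 0 and 177 counts. Astrocyte markers ran from Slc1a2 (1342 ± 169 CPM) to Aldh1l1 (5.2 ± 2.3 CPM) and Mog was the lowest oligodendrocyte marker (13.9 ± 9.5 CPM). Oligodendrocyte precursor markers, of a cell class known to carry NMDA receptors, summed to 138, 88.0 and 266 CPM, with Vcan at 807, 535 and 1524 counts and Cspg4 at 16, 117 and 3. Of the microglial markers, 3 of 5 had a count and Csf1r was the highest (19.6 ± 9.8 CPM), and of the vascular ones, 3 of 4, with Flt1 the highest (32.1 ± 22.5 CPM). Aif1, C1qa and Cldn5 were at 0. None of these lists was tested against the NMDA receptor genes.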
